A study of Nicotiana tabacum with 21 samples.

Results

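The transcripts described here were silent in the auxin-habituated tobacco line VBI-2 and expressed in VBI-0, the auxin-dependent line from which it came. They were chosen by 2 limits. The mean abundance had to reach 2 TPM (a length-corrected share of the transcripts of a library) in both growth phases of VBI-0, and each of the 6 VBI-2 libraries had to hold fewer than 1 estimated read. Of 69491 annotated transcripts, 29413 met the first limit and are called "on in VBI-0" below, and 960 of these also met the second and are called members. The members thus made up 1.38% of the annotation and 3.26% of the transcripts on in VBI-0. Because levels in the VBI lines chose the members, their difference between VBI-2 and VBI-0 is described without a test.

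RNA was sequenced from 21 libraries of suspension cultures grown in the dark, in 7 groups of 3 replicates. VBI-2 cells (cultivar Virginia Bright Italia) grew without added auxin, whereas VBI-0 cells received the synthetic auxins 2,4-D and NAA. BY-2H cells (cultivar Bright Yellow 2) likewise grew without auxin, whereas BY-2 cells, from which they came, were kept on 2,4-D. VBI-2, VBI-0 and BY-2H were each sampled in the stationary phase at day 10 and in the exponential phase at day 3, and BY-2 in the stationary phase, for which the labels give day 10 and the study's methods an earlier day. Exponential BY-2 cells were not analysed here. Line and auxin supply changed together in both pairs and cannot be told apart. The BY-2H libraries were long paired reads from one company and all others short single reads from another, so line and read type cannot be told apart between BY-2H and BY-2, whereas all 12 VBI libraries shared 1 company and read type.

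Habituation is the gain of growth without a supplied hormone by cultured plant cells, and it can be stable over many subcultures. Tobacco is an allotetraploid that carries a subgenome related to Nicotiana sylvestris (copies named S) and one related to Nicotiana tomentosiformis (copies named T). Many genes therefore exist as near-identical pairs, and a program such as Salmon shares the reads that match both copies between them by estimation. Each ID of the Nitab4.5 annotation gives the assembly scaffold before the letter g and the order of the gene on that scaffold after it, which allowed neighbouring transcripts to be read in order.

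The libraries held 10545447 to 17950005 estimated reads in VBI-2, 12001963 to 22564711 in VBI-0, 10595226 to 13755473 in BY-2H and 11364447 to 13111763 in BY-2. As a check of the labels, NtTIR1T, a copy of the auxin receptor gene TIR1 that marks BY-2H in this series, lay at 1140 to 1275 TPM in the BY-2H libraries and at 0.692 to 11.7 TPM in all others. Estimates were not whole numbers for 78.8 to 79.9% of the transcripts with reads in VBI-2, for 81.4 to 82.2% in VBI-0, for 45.9 to 51.1% in BY-2H and for 81.5 to 82.0% in BY-2. A fractional estimate means that reads were shared among transcripts. No source states that replicates came from separate cultures beyond the tag of a biological replicate, so p-values speak at most to the spread between these libraries.

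The members together gave 0.429 ± 0.453 TPM in stationary and 2.36 ± 4.05 TPM in exponential VBI-2 cells, against 22695 ± 218 TPM and 22797 ± 207 TPM in VBI-0 cells of the same phases (SD, n = 3 each). The same transcripts summed to 22940 ± 267 TPM in stationary BY-2H, 22291 ± 215 TPM in exponential BY-2H and 24366 ± 608 TPM in stationary BY-2 cells. In these bulk samples, fewer cells that express a transcript and less RNA per cell cannot be told apart. Single libraries of the BY lines thus spanned 22059 to 25059 TPM and those of VBI-0 22465 to 22989 TPM, so the summed level of the members in the other cultivar was close to that in VBI-0. The median member was lower there, at 5.79 TPM in stationary BY-2H, 5.55 in exponential BY-2H and 6.09 in BY-2. In stationary and exponential VBI-0 it was 8.35 and 7.51 TPM. For all transcripts on in VBI-0 these medians were 8.66, 8.61 and 7.54, against 11.5 and 10.3 TPM.

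**Figure D1:**
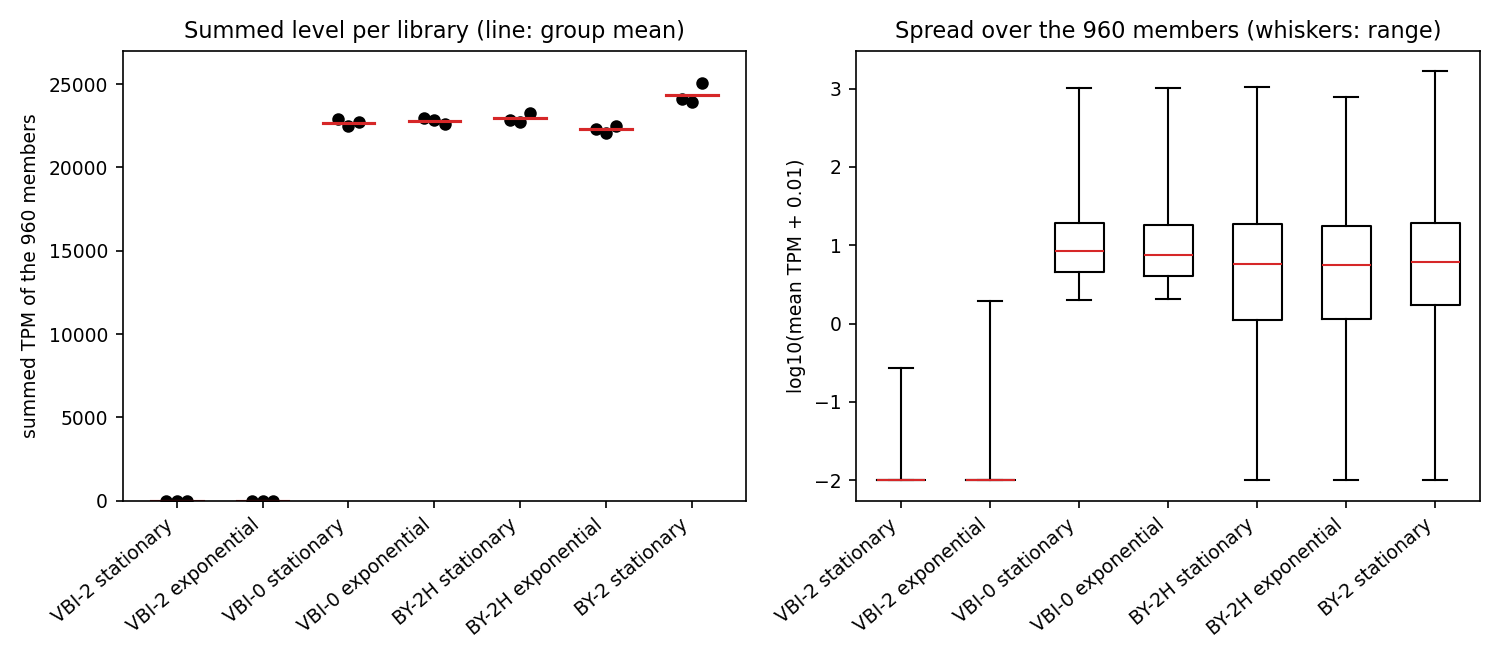
Abundance of the 960 members in the 7 groups. Left, the summed TPM in each library (points) with the group mean (line), near 0 in both VBI-2 groups and between 22059 and 25059 in all other libraries. Right, the spread of the members' mean TPM in each group on a log10 scale after adding 0.01 (box, quartiles and median; whiskers, lowest and highest member).

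Silence was complete for most members. A total of 949 members had 0 reads in all 6 VBI-2 libraries, and the other 11 had estimates that summed to at most 1.69 reads. The highest mean level in VBI-2, 1.93 TPM in the exponential phase for Nitab4.5_0003781g0080.1, came from less than 1 read on a transcript of 180 bases. At the VBI-0 level, the median member would have given 618 reads over the 6 VBI-2 libraries and the lowest 3.56, and 79 members would have given fewer than 30. For the 949 members with 0 reads, set against a floor of 3 reads over the 6 VBI-2 libraries, the level in VBI-0 was at least 208-fold higher at the median. These bounds cover counting error only.

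In VBI-0 the members had a median of 7.98 TPM (quartiles 4.42 and 18.9), against 11.0 TPM for all transcripts on in VBI-0. A mean of 10 TPM or more was reached by 405 members, 50 TPM or more by 94 and 100 TPM or more by 42. The members were also shorter, with a median length of 884 bases against 1125 for all transcripts on in VBI-0, and 15.6% against 5.87% were shorter than 300 bases. Their estimates were whole in all 6 VBI-0 libraries for 6.88% of members and for 7.23% of the other transcripts on in VBI-0, so most members had a fractional estimate in at least 1 library. The part of this sharing in the silence was not tested.

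The most abundant member, Nitab4.5_0003973g0060.1, is a transcript of 210 bases. It had 0 reads in every VBI-2 library, against 1092, 943 and 1002 TPM in stationary and 1015, 1062 and 990 TPM in exponential VBI-0 cells. Nitab4.5_0012757g0010.1 followed with a mean of 610 TPM in VBI-0 and Nitab4.5_0003820g0010.1 with 581 TPM. These transcripts carried no gene name in the study's tables, as was the case for most members.

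Nitab4.5_0005100g0050.1 stood apart from the other abundant members because it was low in the BY lines as well, though detected in exponential BY-2H. It had 0 reads in VBI-2, against 452, 385 and 468 TPM in stationary and 851, 717 and 338 TPM in exponential VBI-0 cells. It had 0.222 to 0.521 TPM in stationary BY-2H, 1.28, 2.20 and 1.60 TPM in exponential BY-2H and at most 0.0988 TPM in a BY-2 library. Its level was at least 10264-fold higher in VBI-0 than in VBI-2, the largest such bound among the members.

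The abundant member Nitab4.5_0005875g0060.1 had 0 reads in VBI-2 and in all 6 BY-2H libraries. It lay at 495, 565 and 496 TPM in stationary and 301, 305 and 452 TPM in exponential VBI-0 cells, and at 208, 203 and 171 TPM in stationary BY-2 cells. In this transcript both habituated lines were at 0 while both auxin-dependent lines were not.

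The limits cut through a continuous range. Just inside the abundance limit lay Nitab4.5_0001520g0070.1, Nitab4.5_0003173g0070.1 and Nitab4.5_0028029g0010.1, whose lower VBI-0 group means were 2.02, 2.04 and 2.05 TPM. Just outside it lay Nitab4.5_0004912g0080.1, Nitab4.5_0001207g0070.1 and Nitab4.5_0017306g0010.1, all with 0 reads in VBI-2 and with lower group means of 1.993, 1.993 and 1.987 TPM. Some abundant transcripts missed the silence limit by 1 library. Nitab4.5_0002458g0030.1 had 1 read in 1 VBI-2 library, against a mean of 753 TPM in VBI-0, and Nitab4.5_0008037g0050.1 had 2.07 reads in 1 VBI-2 library, against 423 TPM in VBI-0. In total, 291 transcripts on in VBI-0 reached 1 read in exactly 1 VBI-2 library.

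The members were unevenly spread over the assembly. They lay on 542 of the 8701 scaffolds that held a transcript on in VBI-0, and 593 members (61.8%) shared their scaffold with another member. The reverse list, 424 transcripts silent in VBI-0 and on in VBI-2, had 37.0% on shared scaffolds, and the list of 1346 transcripts silent in BY-2H and on in BY-2 had 34.6%. The 3 lists differ in size, and these shares were not tested against each other. At the other end, 490 of the 564 scaffolds with 10 or more transcripts on in VBI-0 held no member.

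The 8 scaffolds with the most members, chosen after their counts had been seen, had 10 or more each, and together 113 members (11.8%) among 209 transcripts on in VBI-0. Scaffold 0000021 led with 28 members of 61 transcripts on in VBI-0. Scaffold 0000084 held 15 of 29, scaffold 0000646 13 of 21 and scaffold 0001211 13 of 18. The remaining 4 were scaffold 0001315 with 12 of 20, scaffold 0000410 with 11 of 19, scaffold 0000349 with 11 of 16 and scaffold 0000319 with 10 of 25. Because the 8 were chosen by their member counts, a silent share above the 3.26% of the whole set follows from the choice.

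Members also followed each other directly. Where a member had a next transcript on in VBI-0 on its scaffold, that transcript was a member in 252 of 657 cases (38.4%), against 23.3% in the reverse list and 26.2% in the BY-2H list. The lists also differ in their base, the silent share of the transcripts on in the other line. This base was 3.26% here, 1.47% for the reverse list and 4.70% for the BY-2H list. The shares in this paragraph are not scaled to it, so they do not rank the lists. There were 51 runs of 3 or more members with no other transcript on in VBI-0 between them: 36 runs of 3, 11 of 4 and 4 of 5. They held 172 members (17.9%), against 4.01% of the reverse list and 8.32% of the BY-2H list. With transcripts that were not on in VBI-0 also counted as breaks, 75 members stayed in runs of 3 or more.

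The 4 longest runs each had 5 members. On scaffold 0000021 the run went from Nitab4.5_0000021g0650.1 to Nitab4.5_0000021g0710.1, and its members held 0 reads in VBI-2 and 8836 reads in VBI-0. Its span also held 2 annotated transcripts that were not on in VBI-0, with 70.0 reads in VBI-2 and 61.1 in VBI-0. On scaffold 0001672 the 5 members from Nitab4.5_0001672g0060.1 to Nitab4.5_0001672g0100.1 followed each other with no annotated transcript between them, with 0 reads in VBI-2 and 5498 in VBI-0. The run on scaffold 0000510 had 0 reads in VBI-2 and 4760 in VBI-0, and that on scaffold 0000646 had 0.757 reads in VBI-2 and 4870 in VBI-0. The 10 other annotated transcripts in the span on scaffold 0000510 held 62.1 reads in VBI-2 and 922 in VBI-0. The 3 on scaffold 0000646 held 0 and 488. A further run on scaffold 0000021 had 4 members and included Nitab4.5_0000021g0160.1. This transcript had 0 reads in VBI-2, against 178, 157 and 225 TPM in stationary and 137, 102 and 103 TPM in exponential VBI-0 cells.

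Transcripts beside the members that were not silent themselves were mostly lower in VBI-2 as well. On scaffolds with 5 or more members, 224 other transcripts were on in VBI-0, and their median ratio of mean TPM in VBI-2 over VBI-0 was 0.0923. The median ratio was 0.157 on scaffolds with 2 to 4 members (402 transcripts), 0.725 on scaffolds with 1 member (1155 transcripts) and 0.989 on scaffolds with none (26672 transcripts). On scaffolds with 5 or more members, 80.8% of these other transcripts lay below a ratio of 0.5, against 22.6% of all 28453 other transcripts on in VBI-0. All 6 VBI-2 libraries lay below all 6 VBI-0 libraries for 82.1% of them, against 28.2%. These ratios come from the same contrast as the choice of members, and they are given as a description. Among the 224, estimates were whole in all 6 VBI-2 libraries for 2.13% of the 94 transcripts with a ratio below 0.05 and for 18.6% of the 43 with a ratio of 0.5 or more. In the VBI-0 libraries the shares were similar, at 1.06% and 16.3%. The part of shared reads in the remaining signal was not tested.

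**Figure D2:**
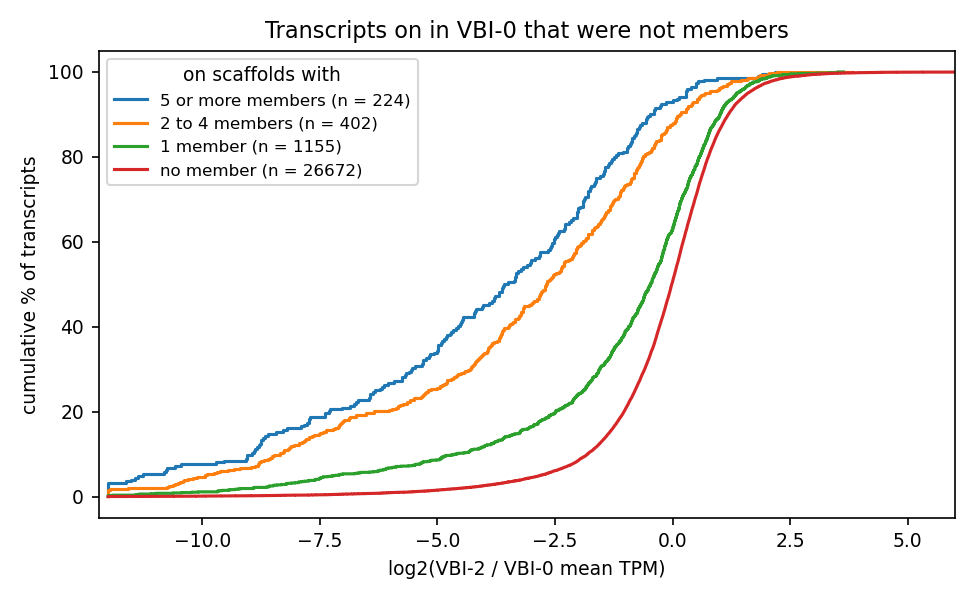
Cumulative share (%) of transcripts on in VBI-0 that were not members, by their log2 ratio of mean TPM in VBI-2 over VBI-0, with ratios below the left end of the axis drawn there. Each curve is a class of scaffolds by the number of members they held. The median ratio was 0.0923 on scaffolds with 5 or more members and 0.989 on scaffolds with none.

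Scaffold 0000021 was low along its whole length. Of its 33 transcripts that were on in VBI-0 but no members, 31 lay below a ratio of 0.5, with a median ratio of 0.122, and 1 lay above the VBI-0 level with a ratio of 1.23. Its most abundant member, Nitab4.5_0000021g0820.1, had 0 reads in VBI-2, against 337, 348 and 317 TPM in stationary and 291, 335 and 256 TPM in exponential VBI-0 cells.

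Scaffold 0000001 was divided. Its first 14 transcripts on in VBI-0 had ratios of at most 0.554, with a median of 0.0105. Of these 14, 6 were members, which the rule put at or near 0, and the other 8 had ratios of 0.00455 to 0.554. The 8 transcripts after these 14 held no member, and their VBI-2 levels were 1.41 to 4.97 times those in VBI-0. This step was found after the values had been seen.

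**Figure D3:**
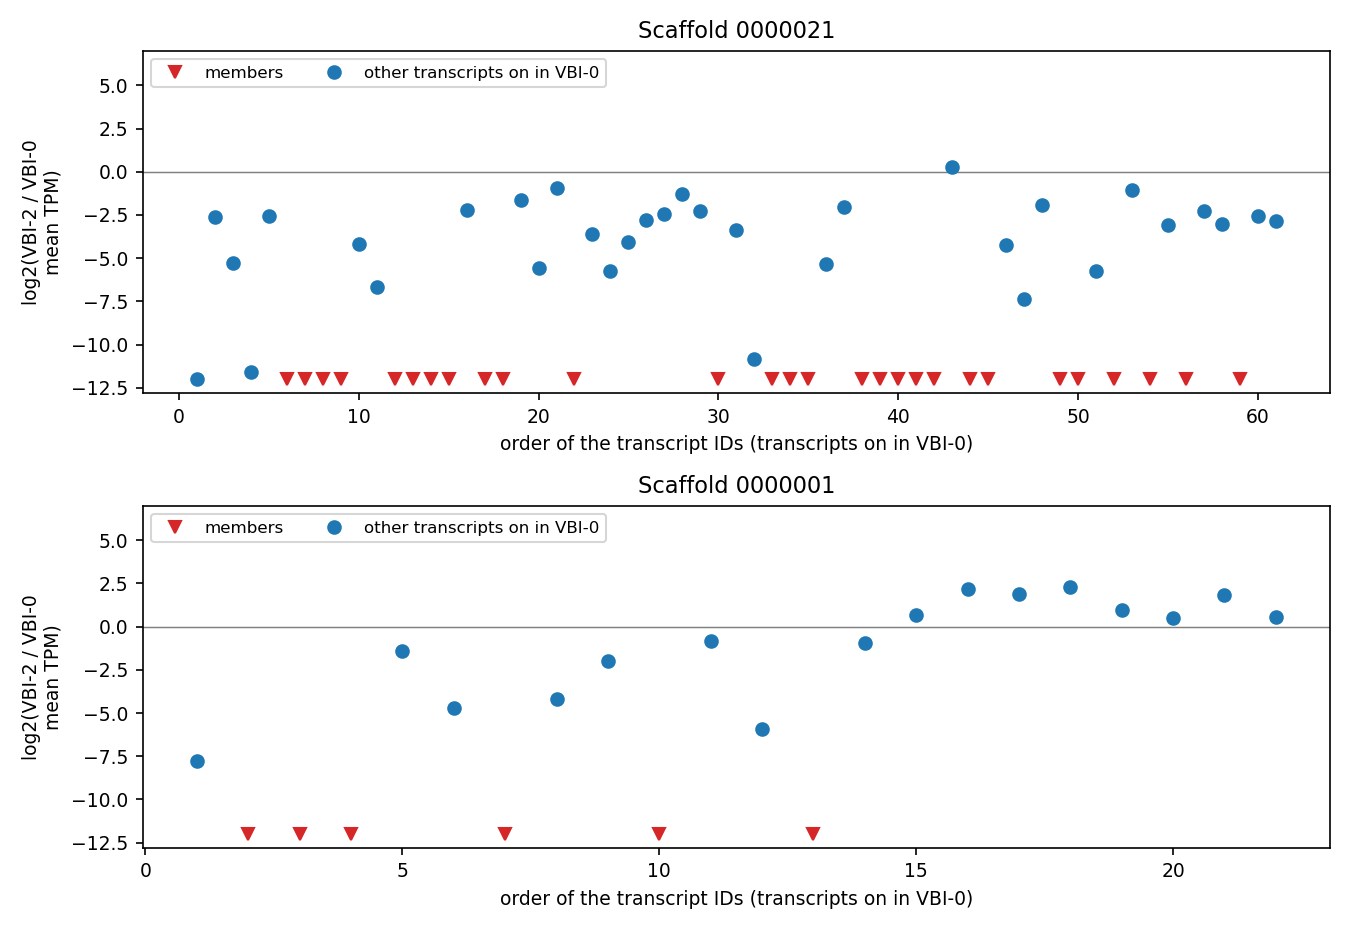
Log2 ratio of mean TPM in VBI-2 over VBI-0 for transcripts on in VBI-0, in the order of their IDs, on scaffold 0000021 (top) and scaffold 0000001 (bottom). Red triangles are members, drawn at the lower end of the axis because their VBI-2 levels were 0 or nearly 0, and blue points are other transcripts; on scaffold 0000001 the 8 last transcripts lie above the line of equal levels.

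The study had paired 2194 transcripts with the closest RefSeq accession in the part of its tables at hand, and 1567 of these were found in the RefSeq gene table of the K326 assembly. Among them were 859 transcripts on in VBI-0 and 39 members. Of the 39, 32 were paired with genes of 1 chromosome, on which 115 transcripts on in VBI-0 were paired, so that 27.8% of these were members. On all other chromosomes 7 of 744 were members (0.941%). The pairing covers few scaffolds, and scaffolds 0000021 and 0000001 both fell on this chromosome. Outside these 2 it held 48 paired transcripts on in VBI-0, of which 3 were members.

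When the paired transcripts were ordered along this chromosome, the step of scaffold 0000001 separated 78 transcripts on 1 side from 37 on the other. The 78 came from 20 scaffolds and had a median ratio of VBI-2 over VBI-0 of 0.00713, and 92.3% lay below 0.5. Of the 78, 32 were members, which the rule put at or near 0. The other 46 had a median ratio of 0.0739. The 37 had a median ratio of 1.93, and none was a member. Only 39 members were paired at all, and scaffold 0000009, with transcripts on this side, held 1 member that was not paired. Without scaffolds 0000001 and 0000021, the first side held 18 transcripts, 3 of them members, of which 14 lay below 0.5 and 3 above 1. The other side held 30 transcripts from 3 scaffolds, of which 20 lay above 1 and 6 below 0.5. In stationary cells the median ratio of BY-2H over BY-2 was 1.74 on the first side (77 transcripts) and 0.727 on the other (35 transcripts). This order was also examined after the values had been seen. No DNA of the VBI lines was analysed here, and whether the DNA of the silent transcripts is present in VBI-2 was not tested.

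**Figure D4:**
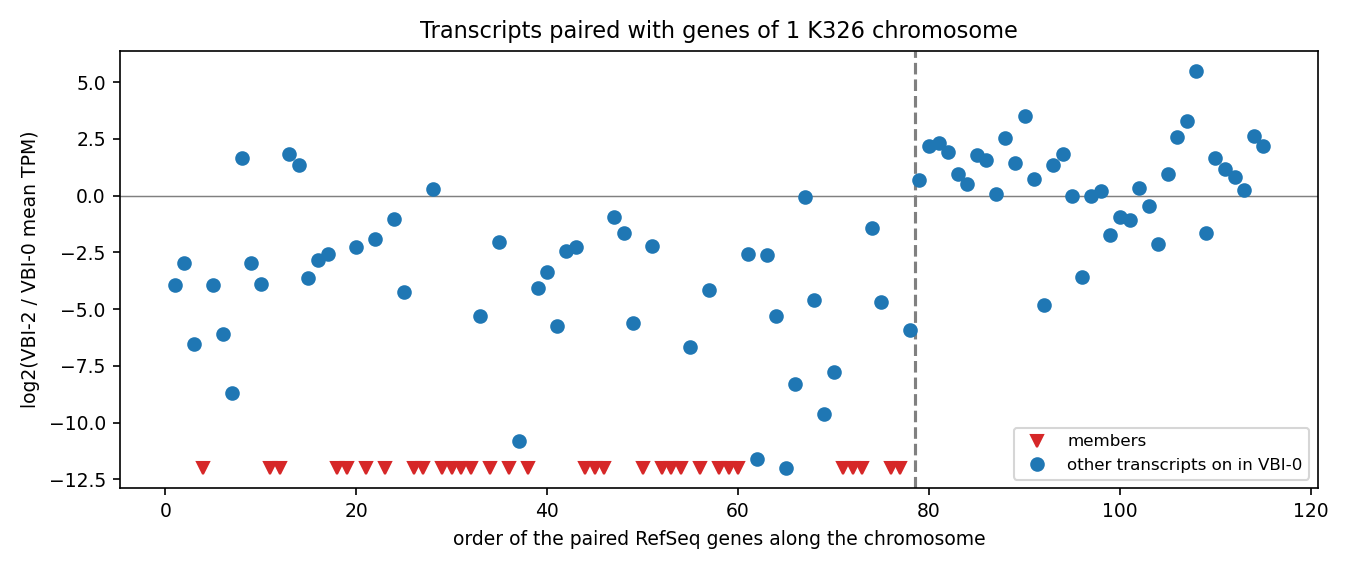
Log2 ratio of mean TPM in VBI-2 over VBI-0 for the 115 transcripts on in VBI-0 that were paired with genes of 1 chromosome of the K326 assembly, in the order of these genes. The dashed line marks the step seen on scaffold 0000001. Red triangles, drawn at the lower end of the axis, are the 32 paired members, and all lie left of it.

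Most members were expressed in the BY lines. A mean above 0.5 TPM, the study's limit of detection, was reached by 770 members (80.2%) in stationary BY-2H, 779 (81.1%) in exponential BY-2H and 803 (83.6%) in stationary BY-2. Of all transcripts on in VBI-0, 89.9%, 90.2% and 90.5% reached it in these groups. Members were detected in all 3 groups in 703 cases and in none in 87 cases (9.06%, against 4.01% of all transcripts on in VBI-0).

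Silence of members was also seen in the BY lines, both the habituated and the auxin-dependent one. Fewer than 1 read in each of the 6 BY-2H libraries was found for 128 members (13.3%), against 4.20% of all transcripts on in VBI-0. Over the 3 libraries of a stationary group, 144 members met this limit in BY-2H and 92 in auxin-dependent BY-2. The matching shares of all transcripts on in VBI-0 were not counted for these 2 groups. Among the 698 members with at least 2 TPM in stationary BY-2, 56 (8.02%) were silent in BY-2H, against 2.82% of the 23286 transcripts on in VBI-0 with that level in BY-2. These 56 were 5.83% of the members and 4.16% of the list silent in BY-2H and on in BY-2. For instance, Nitab4.5_0002914g0040.1 had 0 reads in BY-2H and 85.5, 95.3 and 94.3 TPM in BY-2, which made its stationary BY-2H level at least 472-fold lower. Nitab4.5_0005875g0040.1, on the same scaffold as the abundant member named above, had 0 reads in BY-2H and 16.0, 14.4 and 13.1 TPM in BY-2, a level at least 415-fold lower in BY-2H. Nitab4.5_0007732g0040.1, Nitab4.5_0003208g0070.1 and Nitab4.5_0008484g0020.1 were likewise at 0 in BY-2H, and were at least 144-, 123- and 152-fold lower than in BY-2.

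The BY lines were not used to choose the members, so BY-2H and BY-2 were compared by a test in the stationary phase (edgeR quasi-likelihood test, adjusted p of at most 0.05 and a log2 fold change of at least 1 in size). Of 904 members tested, 160 were higher in BY-2H (17.7%, against 20.3% of all 47271 transcripts tested) and 287 were lower (31.7%, against 22.8%). The median log2 fold change was -0.47 for members and -0.06 for all transcripts tested. With transcripts at 0 in 1 line set at their bound (88 members at 0 in BY-2H and 35 in BY-2), the medians were -0.30 and 0.00. The split of the calls depended on the values tested, for members and for all transcripts. Limma on log2(TPM + 0.5) called 201 members higher (22.2%, against 25% of all) and 201 lower (22.2%, against 15.7%), so the share of lower calls was above that of all transcripts in both fits. Calls among the transcripts on in VBI-0, a closer reference for the members, were not counted in these fits.

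**Figure D5:**
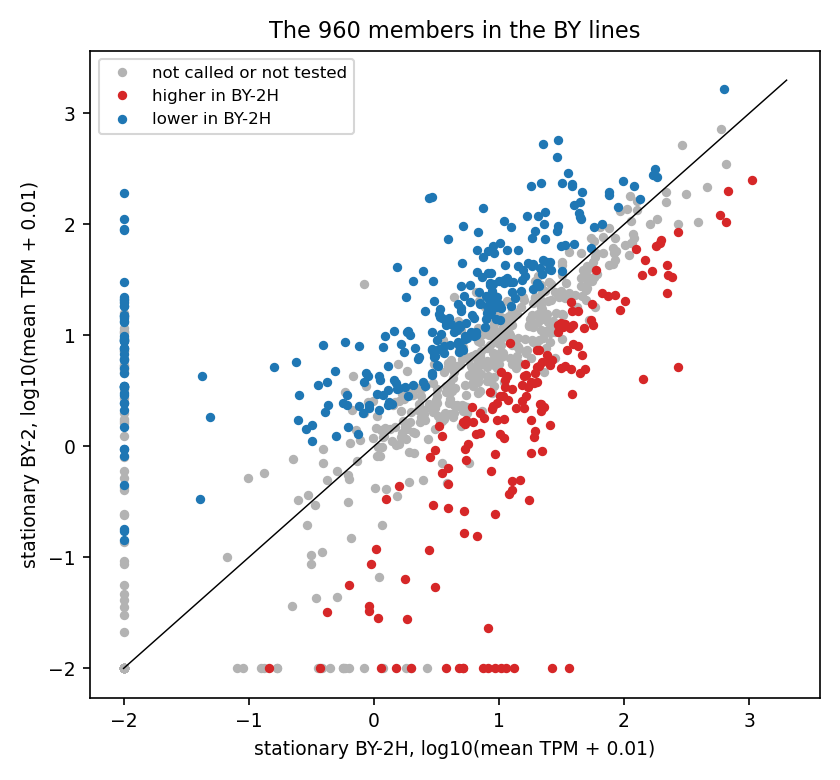
Mean TPM of the 960 members in stationary BY-2H (horizontal) and stationary BY-2 (vertical), each as log10 after adding 0.01, so that a level of 0 lies at -2. Colours give the edgeR call for BY-2H against BY-2, with 160 members higher and 287 lower, and the diagonal marks equal levels.

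On 4 of the 8 scaffolds with 10 or more members, all calls for BY-2H against BY-2 were in 1 direction. Among all transcripts tested, 20.3% were higher in BY-2H and 22.8% lower. On scaffold 0000084, 9 of 15 members were higher in BY-2H and 0 were lower, and the median log2 fold change was 1.89. On scaffold 0001211, 8 of 13 were lower in BY-2H and 0 were higher (median -1.17). On scaffold 0001315, 8 of 12 were lower and 0 higher (median -1.18), and on scaffold 0000349, 7 of 11 were lower and 0 higher (median -1.23). Scaffold 0000410 had 6 of 11 lower and 1 higher (median -1.17). On scaffold 0000021, 9 of 28 members were higher and 2 lower (median 0.58). Scaffold 0000646 had 4 of 12 higher and 1 lower (median 0.80). Scaffold 0000319 was mixed, with 2 of 10 higher and 1 lower (median 0.41), neither share above that of all transcripts. The medians of the other transcripts on in VBI-0 on the same scaffolds had the same sign. They were 1.41 on scaffold 0000084 (14 transcripts), -1.004 on scaffold 0001211 (5), -1.999 on scaffold 0001315 (8), -0.97 on scaffold 0000349 (5), -0.84 on scaffold 0000410 (8), 0.48 on scaffold 0000021 (33), 0.33 on scaffold 0000646 (8) and 0.15 on scaffold 0000319 (15). Neighbouring transcripts share their place in the genome and are not independent replicates, so no p is given for a scaffold.

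Members on scaffolds with 1 member were lower in BY-2H more often than higher, with 118 lower and 46 higher of 335 tested (35.2% and 13.7%, against 22.8% and 20.3% of all transcripts; median log2 fold change -0.95). On scaffolds with 5 or more members 56 were lower and 49 higher of 224 tested (25% and 21.9%, near the shares of all transcripts; median 0.07). The difference between these classes was not tested.

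Some members reached far higher levels in a BY line than in VBI-0. Nitab4.5_0001422g0100.1 had 0 reads in VBI-2, and its mean was 21.2 TPM in VBI-0. It lay at 622, 616 and 642 TPM in stationary BY-2H, against 1642, 1619 and 1738 TPM in BY-2, a log2 fold change of -1.95 ± 0.15 (SE, edgeR adjusted p = 2.17e-06). Its neighbour Nitab4.5_0001422g0020.1 lay at 588, 589 and 605 TPM in BY-2H, against 549, 907 and 696 TPM in BY-2, with overlapping groups and no call. Nitab4.5_0013889g0020.1 was higher in BY-2 but not in BY-2H than its VBI-0 mean of 24.3 TPM. It had 23.7, 23.3 and 21.1 TPM in stationary BY-2H, against 382, 562 and 658 TPM in BY-2 (log2 fold change -5.26 ± 0.27, edgeR adjusted p = 2.2e-07). In both transcripts that were called, all BY-2H libraries lay below all BY-2 libraries.

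Other members were higher in BY-2H. Nitab4.5_0009644g0020.1 had the highest level of all members in stationary BY-2H, 1207, 997 and 961 TPM, against 382, 150 and 219 TPM in BY-2 (log2 fold change 2.39 ± 0.28, edgeR adjusted p = 4.19e-05). In VBI-0 this transcript of 237 bases was present in 1 library of each phase, at 48.8 TPM in the stationary and 119 TPM in the exponential phase, and was listed at 0 in the other 4. Nitab4.5_0000107g0200.1 had 678, 625 and 674 TPM in BY-2H, against 93.2, 95.5 and 127 TPM in BY-2 (log2 fold change 1.79 ± 0.18, edgeR adjusted p = 1.64e-05). Another 4 members, Nitab4.5_0000018g0080.1, Nitab4.5_0000146g0170.1, Nitab4.5_0002845g0010.1 and Nitab4.5_0021852g0010.1, had 0 reads in BY-2, and their levels in BY-2H were at least 65.9-, 80.9-, 40.5- and 44.5-fold higher. All 4 were on in VBI-0 and BY-2H and at 0 in VBI-2 and BY-2. Of the 10 most abundant members in VBI-0, 4 were lower in BY-2H (40%), 1 was higher (10%) and 5 were not called. Of all transcripts tested, 22.8% were lower and 20.3% higher, and 10 members are too few to compare with these shares. The most abundant, Nitab4.5_0003973g0060.1, was lower, at 20.3, 23.7 and 45.0 TPM against 573, 579 and 579 TPM in BY-2 (log2 fold change -3.68 ± 0.35, edgeR adjusted p = 1.05e-05).

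Few members were called between the growth phases. The rule asked for a level in each VBI-0 phase and not for a difference, so the phases were compared by the same test. In VBI-0, 21 of 960 members were higher in the stationary phase (2.19%, against 2.01% of 46750 transcripts tested) and 24 were lower (2.50%, against 2.46%). A member had to reach 2 TPM in both phases, so a fall below that level in 1 phase was barred for members only. The VBI-0 shares of members and of all transcripts are therefore not on a like base, and their closeness is no result about the members. Nitab4.5_0000706g0040.1 had the largest increase, with 53.2, 41.2 and 70.0 TPM in stationary and 5.53, 2.14 and 1.73 TPM in exponential VBI-0 cells (log2 fold change 3.91 ± 0.31, edgeR adjusted p = 1.43e-06). Nitab4.5_0000548g0180.1 was lower, with 2.12, 1.49 and 2.64 TPM in stationary and 7.88, 8.25 and 11.6 TPM in exponential VBI-0 cells (log2 fold change -2.17 ± 0.16, edgeR adjusted p = 9.82e-07). Of the most abundant members, Nitab4.5_0003011g0020.1 was higher in stationary VBI-0 cells (1.10 ± 0.08) and Nitab4.5_0003820g0010.1 lower (-1.01 ± 0.09) on the log2 scale, with edgeR adjusted p-values of 6.03e-07 and 2.59e-06.

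In BY-2H, 16 of 832 members tested were higher in the stationary phase (1.92%, against 1.72% of 44765 transcripts tested) and 7 were lower (0.841%, against 0.963%). Nitab4.5_0000084g0490.1 had 44.4, 34.9 and 35.1 TPM in stationary and 2.48, 1.60 and 2.33 TPM in exponential BY-2H cells (log2 fold change 4.17 ± 0.16, edgeR adjusted p = 5.42e-138). In VBI-0 the same transcript had 3.14, 5.71 and 2.78 TPM in the stationary and 5.08, 5.61 and 4.63 TPM in the exponential phase, where the groups overlapped. Nitab4.5_0000319g0160.1 had 113, 107 and 129 TPM in stationary and 20.2, 21.5 and 32.6 TPM in exponential BY-2H cells (log2 fold change 2.15 ± 0.23, edgeR adjusted p = 1.13e-18). The p-values of this fit were far smaller than those of the VBI-0 fit at a like ratio of fold change to SE. They are not comparable with those of the other fits and do not measure the spread of a single transcript over its libraries. The count of 7 lower members fell to 2 without the second exponential BY-2H library and to 4 without the first.

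The study's list of auxin-related genes, of which the copy at hand lacks a few transcripts, was counted next. Of its transcripts, 559 were on in VBI-0, and 14 of these were members (2.50%, near the 3.26% of all transcripts on in VBI-0). One of 49 auxin response factors (ARF, transcription factors that bind auxin-responsive promoters; 36 on in VBI-0) was a member, as were 2 of 50 AUX/IAA proteins (repressors that are degraded when auxin binds its receptor; 39 on). No member was found among the 8 auxin receptors, 7 influx carriers, 5 efflux carriers and 16 components of Polycomb repressive complex 2, which deposits a repressive histone mark, that were on in VBI-0. At a share of 3.26% less than 1 member would fall in each of these lists, so a count of 0 is no result about them. An EMF2-like component of this complex, Nitab4.5_0007599g0010.1, missed the silence limit with 1.23 reads in 1 VBI-2 library, against a mean of 15.8 TPM in VBI-0.

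NtTAA2S (Nitab4.5_0001284g0120.1) encodes a tryptophan aminotransferase of the main auxin biosynthesis route. It had 0 reads in VBI-2, against 3.77, 5.28 and 4.30 TPM in stationary and 1.81, 3.69 and 2.60 TPM in exponential VBI-0 cells. In the BY lines it was at 0 in every library but 1, an exponential BY-2H library with 0.106 TPM. A further transcript of the same name, Nitab4.5_0007239g0020.1, was low but not silent, at 0.216 ± 0.157 TPM in stationary and 0.217 ± 0.0199 TPM in exponential VBI-2 cells, against 2.76 ± 0.865 TPM and 1.81 ± 0.277 TPM in VBI-0 cells (SD, n = 3 each).

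NtUGT3S (Nitab4.5_0002570g0020.1) belongs to the study's class of auxin inactivation by glycosylation. It had 0 reads in VBI-2, against 6.92, 2.06 and 17.4 TPM in stationary and 25.03, 19.7 and 12.2 TPM in exponential VBI-0 cells. It was at 0 in BY-2H and at 1.27, 1.44 and 0.121 TPM in BY-2, and was called lower in BY-2H, at least 16.0-fold (edgeR adjusted p = 0.00549). Its T partner NtUGT3T (Nitab4.5_0000073g0500.1) was far more abundant and not silent, with 12.8 ± 2.83 TPM in stationary and 38.2 ± 12.8 TPM in exponential VBI-2 cells, against 558 ± 91.0 TPM and 1404 ± 253 TPM in VBI-0 cells (SD, n = 3 each). Reads shared between the partners cannot be told apart in these estimates.

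The ARF member, Nitab4.5_0012799g0010.1, had 0 reads in VBI-2, against 2.03, 1.99 and 2.50 TPM in stationary and 2.68, 2.31 and 2.21 TPM in exponential VBI-0 cells. The AUX/IAA member Nitab4.5_0011578g0020.1 had 0 reads in VBI-2, against 2.07, 1.38 and 3.03 TPM in stationary and 4.79, 5.85 and 4.35 TPM in exponential VBI-0 cells, and fell by 1.43 ± 0.29 on the log2 scale in the stationary phase (edgeR adjusted p = 0.00268). It was expressed in BY-2H (5.22 to 7.41 TPM in stationary cells) and in BY-2 (3.49 to 11.98 TPM). The other AUX/IAA member, Nitab4.5_0022877g0010.1, rested on 1 library of each phase in VBI-0, at 10.3 TPM in the stationary and 11.6 TPM in the exponential phase, and was listed at 0 in the other 4, so its place among the members is the least certain of the named auxin genes.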

How the data were processed

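RNA-seq of 21 libraries was used as deposited by the authors, who had filtered the reads (Trimmomatic per the labels, other tools per the study's methods) and quantified them with Salmon 1.3.0 on the Nitab4.5 cDNA set. The deposited estimated counts (NumReads) are not normalized, and the deposited TPM values are scaled by effective length to the same total in each library. Effective length was used for 1 alternative. Estimated counts were rounded to whole numbers and compared with edgeR 4.0.16 in R 4.3.3 (TMM, quasi-likelihood, Benjamini-Hochberg over all transcripts whose mean passed 0.5 TPM in 1 or more of the 7 groups; adjusted p at most 0.05, absolute log2 fold change at least 1), fitted on the 6 libraries of each comparison. Alternatives used DESeq2 1.42.0, limma 3.58.1, other scalings, filters and limits, a replicate block and leaving out libraries. In simulated counts, the test recovered 91%, 99% and 98% of 4-fold and 25%, 42% and 39% of 2-fold changes in the comparisons of BY-2H with BY-2 and of the phases in VBI-0 and BY-2H. A 2-fold change lies on the fold limit, which by itself leaves part of such changes uncalled. Changes were placed only in transcripts above a minimum mean count, so these shares do not cover members with low counts. An estimate was called whole within 0.0005 reads. No other per-sample columns were found.

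Members, lists and tests were chosen with earlier results of these data known. Named transcripts were those with a name or class in the study's tables, the 10 most abundant in VBI-0, the ends and peaks of the 5 longest runs (ties broken by ID), the 5 highest and 5 lowest calls per comparison without overlap, the 5 highest in each stationary BY line, those nearest the limits and S or T partners. The text gives the values of those the results turn on. Scaffold counts, neighbour ratios, whole-number shares and the chromosome order were chosen after the values had been seen. The transcript sequences were not used here, and the RefSeq gene table (assembly ASM71507v2) served only for the order of genes. The study's own differential test was not rerun. Values were tabulated with Python 3 and pandas.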

Additional observations from a re-analysis of the deposited data

Results flagged for a closer look

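Nitab4.5_0000329g0220.1 moved in opposite directions with growth phase in VBI-0 and BY-2H, without overlap between the phases in either line. Its log2 fold change of stationary against exponential cells was 1.63 in VBI-0 and -1.01 in BY-2H, from 355, 330 and 308 TPM in stationary and 110, 114 and 51.0 TPM in exponential VBI-0 cells and from 9.04, 7.78 and 5.49 TPM in stationary and 16.1, 16.5 and 14.7 TPM in exponential BY-2H cells. Nitab4.5_0004284g0020.1 likewise differed, with a log2 fold change of 0.59 in VBI-0, where it was not called, and -1.11 in BY-2H. The difference between the lines was not tested for either transcript. Of the 88 members whose phases did not overlap in both lines, 47 moved the same way and 41 opposite ways (46.6%, against 43.3% of the 4389 transcripts without overlap in both lines), so the split is close to that of all transcripts.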

How the results depend on the processing

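Of 163 alternative values, 142 stayed within 1.5 times the reported one. The number of members was 579 and 353 with at least 5 and 10 TPM in VBI-0, 1834 with fewer than 5 reads per VBI-2 library, and 1873 with a VBI-2 mean below 0.05 of the VBI-0 mean, an alternative chosen after seeing the data. Members in runs of 3 or more were 100, 385 and 518 with the limits of 5 TPM, 5 reads and 0.05, and 75 in the order of all annotated transcripts, and the longest run had 13 transcripts with the limit of 0.05. Calls of BY-2H against BY-2 fell to 185 lower with limma on log2(TPM + 1), which also called 185 higher (20.5% each, against 13.7% lower and 21.4% higher of all transcripts). For the phases of VBI-0, no fold limit gave 84 higher and 130 lower, and limma gave 12 and 11 lower with 0.5 and 1 added. For the phases of BY-2H, no fold limit gave 54 higher and 50 lower, DESeq2 gave 4 lower, and limma gave 1 and 2 lower. Leaving out 1 library gave 939 to 1015 members, 159 to 198 in runs, a longest run of 5 to 6, detection of 762 to 768 in stationary BY-2H, 766 to 774 in exponential BY-2H and 792 to 804 in BY-2, 145 to 161 higher and 253 to 283 lower for BY-2H against BY-2, 17 to 30 higher and 21 to 28 lower for the phases of VBI-0, and 14 to 17 higher and 2 to 8 lower for the phases of BY-2H. Replicate numbers did not pair the samples, since the correlations of deviations were 0.15, -0.15 and -0.04 for BY-2H and BY-2, -0.04, 0.21 and -0.23 for VBI-0 and -0.15, 0.07 and -0.08 for BY-2H. With the replicate block, 158 were higher and 255 lower for BY-2H against BY-2, 20 and 23 for VBI-0, and 16 and 5 for BY-2H. Depth limits silence for the 79 members with fewer than 30 expected reads, without which 881 remained.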
